A study of Mus musculus with 4 samples.

Results

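Ccl5, Ccl4, Ccl3, Xcl1, Ccl1 and Cxcl2 are 6 chemokine ligand genes that T cells can transcribe, taken by name from the 31053 genes of the count matrices. They were followed in 4 single-cell RNA-seq libraries of sorted T cells: meninges of young mice, choroid plexus of young mice, meninges of aged mice and choroid plexus of aged mice. The mice were female C57BL/6 animals with no engineered allele and no treatment, young at 10 weeks and aged at 18 months, and each library pooled the cells of 5 mice, so there was 1 library per condition and no animal could be told from another. T cells were sorted from enzyme-digested tissue by surface CD4 and CD8, and the 5′ ends of their transcripts were counted with the 10x Genomics droplet kit.

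Chemokines are small secreted proteins that bind G protein-coupled receptors on leukocytes and direct their movement along a gradient. Ccl5, Ccl4 and Ccl3 attract effector T cells and monocytes, Xcl1 binds Xcr1 on cross-presenting dendritic cells, Ccl1 binds Ccr8 on regulatory and Th2 cells, and Cxcl2 binds Cxcr2 on neutrophils. In T cells, Ccl5 is a late gene that memory cells keep as standing transcript, whereas Ccl3, Ccl4, Xcl1 and Ccl1 are known for bursts of transcription after receptor stimulation.

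Ccl5 (ENSMUSG00000035042) lies at chr11:83525778-83530518 on the minus strand of GRCm38, Ccl3 (ENSMUSG00000000982) at chr11:83647844-83649355 on the minus strand and Ccl4 (ENSMUSG00000018930) at chr11:83662584-83664683 on the plus strand, with 13228 bases between Ccl3 and Ccl4. Ccl1 (ENSMUSG00000020702) is annotated at chr11:82176657-82305690 on the minus strand, Xcl1 (ENSMUSG00000026573) at chr1:164931644-164935527 on the minus strand and Cxcl2 (ENSMUSG00000058427) at chr5:90903871-90905938 on the plus strand. A RefSeq promoter (GRCm38.p6, 250 bases before and 50 after the start) was matched for 4 of the 6 genes, and these 4 are printed because single cells held much of the RNA of their genes, up to 421 molecules of Ccl1 in 1 cell. Ccl5 and Ccl4 had no entry. Capitals mark 2 motifs where they match the printed strand, a κB-like motif (GGG and TTTCC with any 2 bases between them) and the TATA-like ATAAAA.
Cxcl2 (chr5:90903649-90903948, plus strand): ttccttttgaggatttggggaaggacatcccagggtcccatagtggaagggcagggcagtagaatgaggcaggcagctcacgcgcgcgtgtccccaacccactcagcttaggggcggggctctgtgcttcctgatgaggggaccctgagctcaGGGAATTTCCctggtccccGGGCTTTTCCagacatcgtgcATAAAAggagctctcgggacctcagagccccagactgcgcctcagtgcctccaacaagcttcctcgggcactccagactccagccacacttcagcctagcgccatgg
Ccl1 (chr11:82179763-82180062, minus strand): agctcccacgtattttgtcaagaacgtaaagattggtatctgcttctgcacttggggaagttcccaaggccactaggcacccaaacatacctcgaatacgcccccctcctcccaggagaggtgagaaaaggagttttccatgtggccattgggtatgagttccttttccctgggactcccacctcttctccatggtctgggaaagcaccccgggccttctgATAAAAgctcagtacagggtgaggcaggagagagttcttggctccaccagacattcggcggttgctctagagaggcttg
Xcl1 (chr1:164935473-164935772, minus strand): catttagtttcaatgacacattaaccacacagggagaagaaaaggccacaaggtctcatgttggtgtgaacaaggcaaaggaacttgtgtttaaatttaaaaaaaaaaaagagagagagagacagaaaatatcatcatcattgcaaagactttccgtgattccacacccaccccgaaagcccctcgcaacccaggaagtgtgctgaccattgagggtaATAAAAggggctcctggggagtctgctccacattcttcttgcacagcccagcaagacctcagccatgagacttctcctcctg
Ccl3 (chr11:83649329-83649628, minus strand): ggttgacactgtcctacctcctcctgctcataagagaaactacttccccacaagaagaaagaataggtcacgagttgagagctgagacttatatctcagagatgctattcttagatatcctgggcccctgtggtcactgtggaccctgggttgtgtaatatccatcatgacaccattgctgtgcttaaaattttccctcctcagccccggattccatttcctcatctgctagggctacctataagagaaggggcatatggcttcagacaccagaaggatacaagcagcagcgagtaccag
The Cxcl2 promoter held 2 κB-like matches, which begin 97 and 78 bases before the start, and Ccl1, Xcl1 and Ccl3 held 0 on either strand. On either strand, 1.61% of the 32544 RefSeq promoters of the same length held the κB-like motif. The TATA-like motif began 57, 29 and 32 bases before the start of Cxcl2, Ccl1 and Xcl1, and 18.4% of all promoters held it on either strand. The NFAT core GGAAA matched 2 times in Cxcl2, 3 times in Ccl1, 1 time in Xcl1 and 2 times in Ccl3, against at least 1 match in 61.5% of all promoters, and both NFAT core matches in Cxcl2 overlap the κB-like matches on the opposite strand. The AP-1-like TGANTCA had 0 matches in these 4 promoters and was held by 7.79% of all promoters. These matches describe the letters of the window only.

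Values of all 4 libraries are listed with the young ones first and, within each age, the meninges before the choroid plexus. The matrices held 1111, 718, 1695 and 1277 barcodes with 3737140, 2295950, 4262917 and 3957717 unique molecular identifiers (UMIs, 1 per captured transcript). After filters, 1008, 619, 1399 and 1091 T cells with a Cd3d, Cd3e or Cd3g UMI remained, with median depths of 3194, 2987, 2306 and 2839 UMIs. T cells were called CD4 by a Cd4 UMI, CD8 by a Cd8a or Cd8b1 UMI, and neither where none of the 3 genes had a UMI. This gave 165 to 356 CD4, 165 to 473 CD8 and 272 to 732 neither T cells per library, and 17 to 34 cells with both. Any pair of libraries shared between 0 and 2 barcode sequences. Since all cells were sorted by surface CD4 or CD8, the neither class may hold cells whose transcript of these genes was not captured. The purity of the sort was not tested, and cells that make neither CD4 nor CD8 cannot be told apart from these. The T-cell marker list (7 genes) had 0 of 7 genes past the rule of size given below in each of the 6 comparisons of aged with young.

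Levels are given as CPM, the summed UMIs of a gene in a class of cells per 1000000 UMIs of all genes in the same cells. Because 1 UMI stands for 1 transcript end, CPM was not divided by gene length. With 1 library per condition there is no replicate and no test. The 95% intervals are exact Poisson (sums), Clopper-Pearson (shares) or exact conditional (ratios) intervals, and they cover counting error only, not differences between mice. Those of sums and ratios also take UMIs as independent, so they are too narrow where 1 cell holds many UMIs of a gene. A gene was counted as higher or lower when it had at least 20 UMIs in the higher library and its log2 ratio, taken after adding 10 CPM to both sides, was at least 1 in size. In summed counts, fewer expressing cells and less RNA per cell cannot be told apart, so shares of cells are given beside the sums.

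Ccl5 stood far above the other 5 genes, and was highest in CD8 T cells of aged mice. With age, 5 of the 6 genes were higher in CD8 T cells of the meninges, where 3.21% of all genes tested were higher, and 3 of 6 (Ccl5, Ccl4 and Ccl3) in CD8 T cells of the choroid plexus, against 2.47% of all genes. In CD4 T cells of the meninges, 2 of 6 (Ccl5 and Cxcl2) were higher against 4.18% of all genes, and 3 of 6 (Ccl4, Ccl3 and Ccl1) were lower against 1.84%. CD4 T cells of the choroid plexus had 3 of 6 (Ccl5, Xcl1 and Ccl1) higher, against 6.90% of all genes. Neither T cells had 4 of 6 higher (Ccl5, Ccl4, Ccl3 and Cxcl2) in the meninges against 3.43% of all genes, and 1 of 6 (Ccl1) lower against 1.42%. Neither T cells of the choroid plexus had 2 of 6 (Ccl5 and Ccl4) higher, against 4.66%. Ccl5 was past the rule in all 6 of these comparisons, and in 2 of them (CD8 and neither T cells of the meninges) when cells with a Ccr7 UMI were left out. Several of the other counts rested on 1 cell, as given gene by gene below. The median log2 ratio of all genes tested was 0.03 to 0.08 in the meninges and 0.13 to 0.15 in the choroid plexus, so the choroid plexus ratios carry a small upward shift that all genes share.

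**Figure D1:**
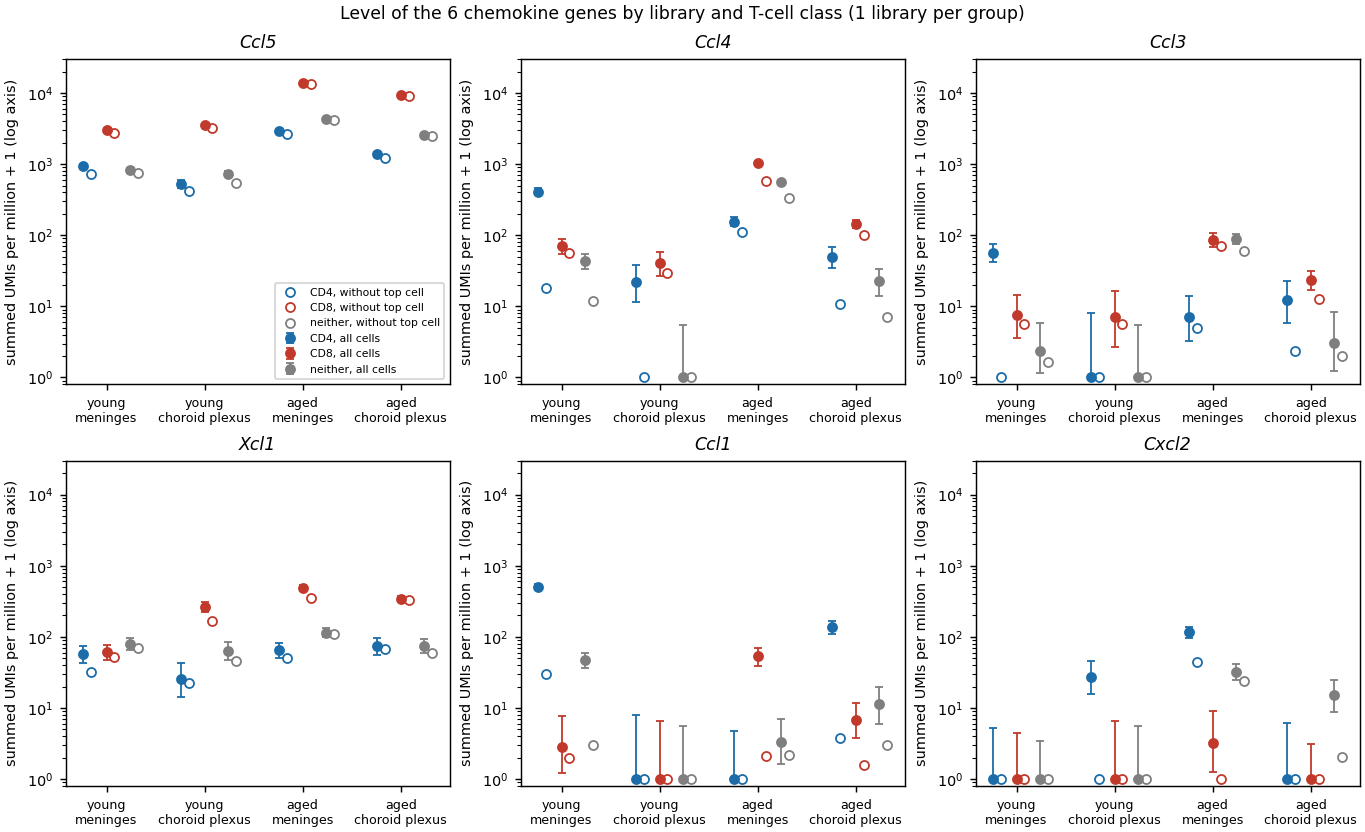
CPM plus 1 (log axis) of each gene in CD4 (blue), CD8 (red) and neither (grey) T cells of the 4 libraries. Filled points are all cells with the exact Poisson 95% interval, and open points are the same class without the 1 cell with most UMIs of the gene: Ccl5 moves from 13628 to 13409 CPM in aged meninges CD8 T cells and from 733 to 548 CPM in young choroid plexus neither T cells, whereas Ccl1 in young meninges CD4 T cells drops from 504 to 28.6 CPM.

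Ccl5, which attracts T cells and monocytes, was at 2971 CPM (2869-3076) in CD8 T cells of the young meninges and at 13628 CPM (13389-13871) in those of the aged meninges. In the choroid plexus, CD8 T cells had 3502 CPM (3361-3648) when young and 9333 CPM (9190-9478) when aged. The ratio of aged to young was 4.59 (4.41-4.77), log2 2.19, in the meninges. In the choroid plexus it was 2.67 (2.55-2.78), log2 1.41. Both aged libraries lay above both young ones.

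CD4 T cells had less Ccl5 and the same order of ages. Their level was 930 CPM in young meninges, 523 in young choroid plexus, 2881 in aged meninges and 1372 in aged choroid plexus, a log2 ratio of 1.62 and 1.38 for the 2 tissues, which was 0.68 and 0.70, under the rule of size, in CD4 T cells without a Ccr7 UMI. Neither T cells had 835, 733, 4295 and 2598 CPM in the same order, with log2 ratios of 2.35 and 1.81. Without Ccr7-positive cells the ratio was 1.23 in the meninges, and the choroid plexus levels of 2946 CPM aged and 1473 young lay just under the rule. In all 4 libraries CD8 T cells were above CD4 T cells, by log2 1.67, 2.72, 2.24 and 2.76, and they held 60.3, 66.3, 52.1 and 78.7% of the Ccl5 UMIs while making up 25.5, 26.7, 20.1 and 43.4% of the T cells.

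More CD8 T cells had Ccl5 in the aged libraries, and the median level of those with it was higher, with overlap between the ages. A Ccl5 UMI was found in 31.9% of CD8 T cells of the young meninges, 48.5% in the young choroid plexus, 92.9% in the aged meninges and 93.2% in the aged choroid plexus. After every cell was thinned to 1000 UMIs, which left out 8, 6, 38 and 21 shallower T cells of the 4 libraries, the shares were 27.2% (21.9-33.1), 42.0% (34.3-50), 90.9% (86.8-94.0) and 90.1% (87.1-92.7), so the gain was 63.6 percentage points (56.5-69.8) for the meninges and 48.2 (39.6-56.3) for the choroid plexus. Among CD8 T cells with a UMI, the median level was 62.0 and 40.9 per 10000 UMIs of the cell in the young libraries and 134 and 81.9 in the aged ones, meninges first. The middle 50% of these cells ran from 10.8 to 127 and from 15.2 to 88.1 in the young libraries, and from 70.2 to 213 and from 48.2 to 141 in the aged ones. Over all CD8 T cells the median cell had 0 in both young libraries and 127 and 76.6 per 10000 in the aged ones. The CD4 share at equal depth was 14.2, 11.0, 38.3 and 23.3%, and the neither share 12.7, 9.26, 42.1 and 30.6%.

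**Figure D2:**
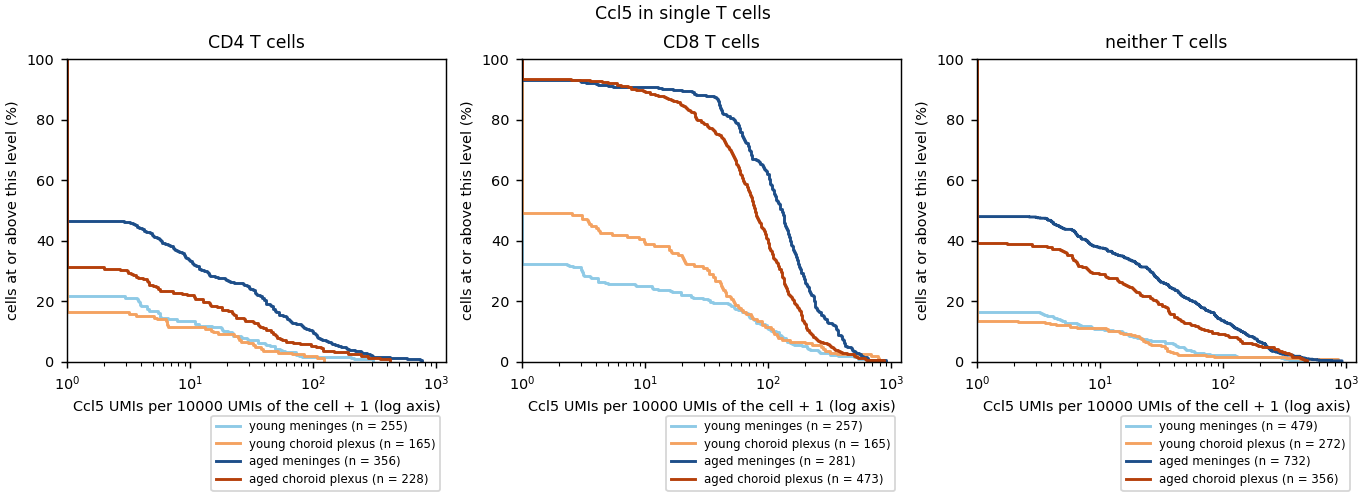
Share of T cells (%) at or above each Ccl5 level (UMIs per 10000 UMIs of the cell, plus 1, log axis), 1 panel per class and 1 line per library. In the CD8 panel the aged lines start at 92.9 and 93.2% and stay high until their medians of 127 and 76.6 per 10000, while the young lines start at 31.9 and 48.5% and decline from the first UMI on.

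Free RNA in droplets can give a UMI to a cell that does not express the gene. T cells with UMIs of both Ccr7 and Lef1, genes of naive T cells, which make little of these chemokines, had a Ccl5 UMI in 3.85% (467 cells, median 3329 UMIs) and 6.69% (270 cells, 3107 UMIs) of cases at equal depth in the young meninges and choroid plexus, and in 26.1% (46 cells, 3574 UMIs) and 24.4% (45 cells, 3881 UMIs) in the aged ones. Barcodes without a Cd3 UMI had Ccl5 in 7 of 28 cases in the aged meninges (median 1480 UMIs), with at most 2 UMIs each. The intervals of the aged references were wide (14.3-41.1 and 12.9-39.5). Some reference cells held up to 83, 128, 256 and 110 Ccl5 UMIs each in the 4 libraries, so the reference is not free of expressing cells. CD8 shares lay above the reference in every library. The CD4 share of the aged choroid plexus (23.3%, 18-29.4) did not exceed its reference, and the intervals of the CD4 and neither shares of the young choroid plexus (6.64-16.8 and 6.08-13.4) include theirs. In aged CD8 T cells 2.30 and 2.04% of the Ccl5-positive cells had a single UMI, against 20.6 and 25.7% of the positive CD4 T cells.

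Naive genes moved with the result. All 5 naive-list genes were lower with age in CD8 T cells of the meninges and 4 of 5 in those of the choroid plexus (list medians log2 -1.64 and -1.84, against 0.03 and 0.13 over all genes). In CD8 T cells without a Ccr7 UMI, Ccl5 was at 6180 and 14498 CPM in young and aged meninges, log2 1.23, and at 5917 and 9613 CPM in young and aged choroid plexus, log2 0.70, which is under the rule of size. The share at equal depth in these cells was 51.6, 62.4, 92.8 and 92.9%, a gain of 41.1 and 30.5 percentage points. The aged level was the higher one in both tissues, by less than with all CD8 T cells.

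**Figure D3:**
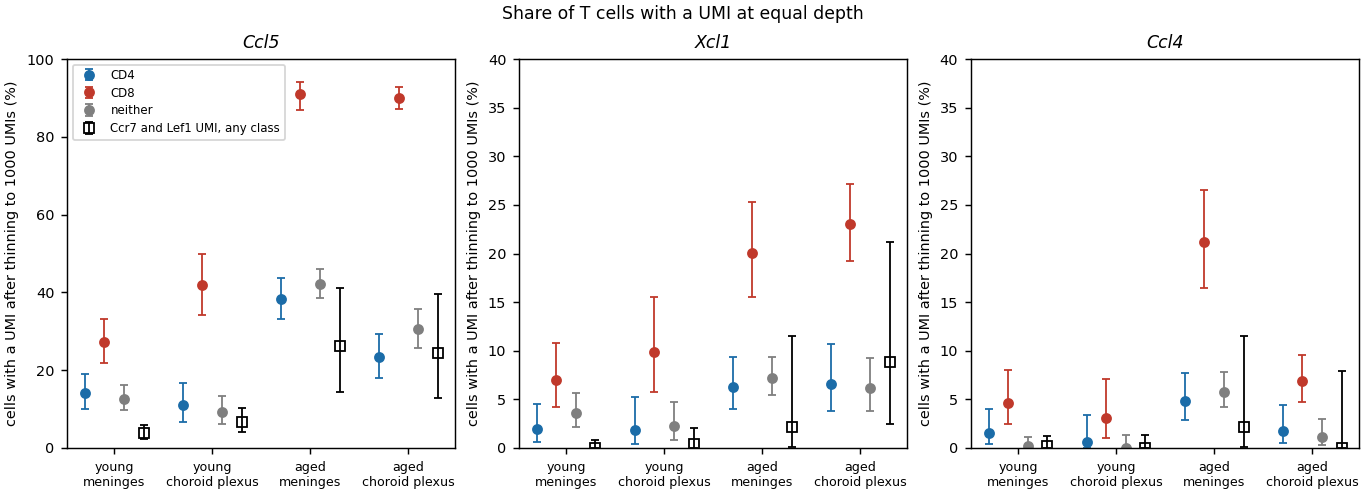
Share of T cells (%) with a Ccl5, Xcl1 or Ccl4 UMI after thinning each cell to 1000 UMIs, by library, for CD4 (blue), CD8 (red) and neither (grey) T cells with Clopper-Pearson 95% intervals. Black squares are the cells with UMIs of both Ccr7 and Lef1, where Ccl5 was found in 3.85 to 26.1% of cells, below every CD8 share of the same library (27.2 to 90.9%).

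Ccl4, an attractant of T cells and monocytes that activated T cells secrete, was at 68.9 CPM (54.1-86.5) in CD8 T cells of the young meninges, 39.4 (25.7-57.7) in the young choroid plexus, 1030 (965-1098) in the aged meninges and 144 (126-163) in the aged choroid plexus. The aged over young ratio was 14.9 (11.8-19.2), log2 3.72, in the meninges and 3.64 (2.43-5.69), log2 1.64, in the choroid plexus. Much of the first value sat in few cells: 402 of the 932 UMIs came from 1 cell, and 587 CPM remained without it, log2 3.19. At equal depth 4.67, 3.09, 21.2 and 6.87% of CD8 T cells had Ccl4 in the 4 libraries. The gain was 16.5 percentage points (10.7-22.3) for the meninges. For the choroid plexus it was 3.78 (-0.721 to 7.18), an interval that includes 0.

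Outside CD8 T cells too, single cells held much of the Ccl4 RNA. CD4 T cells had 410 CPM in the young and 155 CPM in the aged meninges, but 348 of the 363 UMIs of the young class came from 1 cell, and without it 17.1 CPM remained. The direction of the CD4 comparison thus depends on that cell, since the aged class kept 110 CPM without its own top cell. CD4 T cells of the choroid plexus had 20.8 CPM when young, all from 1 cell, and 48.6 when aged, 28 of 35 UMIs from 1 cell. Neither T cells had 42.1 CPM in young meninges, 0 in young choroid plexus (3 counts would be 3.69), 555 in aged meninges, where 389 of 956 UMIs came from 1 cell, and 21.4 in aged choroid plexus. The last value rested on 21 UMIs, 15 of them in 1 cell, and without that cell (6.11 CPM) Ccl4 was no longer past the rule in neither T cells of the choroid plexus. At equal depth the CD4 share was 1.57% in young and 4.86% in aged meninges, and the neither share 0.212 and 5.80%.

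Ccl3, a secreted attractant of monocytes and T cells and the genomic neighbour of Ccl4, was the rarer transcript of the pair. CD8 T cells had 6.52, 6.06, 85.1 and 22.5 CPM in the 4 libraries, log2 2.53 in the meninges (77 against 7 UMIs) and 1.02 in the choroid plexus (39 against 4 UMIs, 19 of the 39 in 1 cell, 11.5 CPM and not past the rule without it). In CD4 T cells of the young meninges all 49 UMIs came from 1 cell, the cell that also led in Ccl4, and the other 254 cells had none. The neither class of the aged meninges had 152 UMIs in 19 of 732 cells, against 2 UMIs in the young meninges, log2 3.11. Ccl3 was present in 9.96% of CD8 T cells of the aged meninges and in 0 to 3.17% of the cells of the other CD4, CD8 and neither classes.

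Xcl1, the ligand of Xcr1, was highest in CD8 T cells of 3 libraries and was spread over more cells than Ccl4. Its CD8 level was 59.6 CPM (45.9-76.1) in young meninges, 262 (225-304) in young choroid plexus, 487 (443-535) in aged meninges and 340 (313-369) in aged choroid plexus. It was higher with age in the meninges, log2 2.84, and not past the rule in the choroid plexus, ratio 1.30 (1.09-1.55), log2 0.36. Without the top cell of each class the 4 levels were 51.4, 168, 349 and 331 CPM. The unthinned shares of CD8 T cells were 10.9, 26.7, 37.7 and 51.0%, and at equal depth 7.0, 9.88, 20.1 and 23.0%. In cells with Ccr7 and Lef1 UMIs the share at equal depth was 0, 0.372, 2.17 and 8.89%, which the CD4 and neither shares of the aged choroid plexus (6.61 and 6.12%) did not exceed.

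Xcl1 was lower and flatter in the other classes. CD4 T cells had 56.5, 24.6, 63.4 and 72.2 CPM, with an age difference of log2 0.14 in the meninges and, from 52 against 13 UMIs, of 1.25 in the choroid plexus. Neither T cells had 78.8, 62.8, 113 and 74.2 CPM, log2 0.47 and 0.21, both under the rule. Within the young meninges the ratio of CD8 to CD4 T cells was 1.05 (0.717-1.56), an interval that includes 1, whereas in the other 3 libraries CD8 T cells were higher by log2 2.97, 2.76 and 2.09.

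Ccl1, the ligand of Ccr8, was a gene of single cells in every library that had it. In CD4 T cells of the young meninges, 421 of 446 UMIs were in 1 cell and the other 25 in a second. In the neither class of the young meninges 66 of 69 UMIs were in 1 cell, in aged meninges CD8 T cells 46 of 47, and in aged choroid plexus CD4 T cells 95 of 97. The young choroid plexus had 0 UMIs in 619 cells, where 3 counts would be 5.68 CPM in its CD4 class. The CPM of these classes (504, 46.1, 51.9 and 135) therefore describe 1 or 2 cells each, and so do the calls of Ccl1 as higher or lower. Over all classes, Ccl1 was detected in 8, 0, 5 and 8 T cells, which were deep (median 7588, 3545 and 4860 UMIs where present, against 3190, 2299 and 2838 for the others). All 5 of the aged meninges and all 8 of the aged choroid plexus had a gene of the resident list (Itgae, Itga1 and Cxcr6), against 38.2 and 52.0% of the other T cells. These shares were not taken at equal depth, and that of the 8 cells of the young meninges is not given here.

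Cxcl2, best known as a neutrophil attractant made by myeloid cells, was a gene of the aged meninges. No T cell of the young meninges had it (0 of 1008 cells), 1 CD4 T cell of the young choroid plexus had 14 UMIs, and 2 neither T cells of the aged choroid plexus had 14. The aged meninges had 170 UMIs in 25 cells: 114 in 8 CD4 T cells, 71 of them in 1 cell, 54 in 16 neither T cells and 2 in 1 CD8 T cell. Against the 3 counts that a sum of 0 allows in the young library, this was at least 33.9-fold higher in CD4 T cells and at least 15.6-fold higher in neither T cells of the meninges. The lower 95% limits of these ratios were 27.1 and 12.3, and the CD4 level was 43.4 CPM without its top cell.

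The Cxcl2-positive cells of the aged meninges were set against all other T cells of that library, not against Ccl5-positive cells alone. Of the 25 cells, 24.0% (9.36-45.1) had Ccl5, against 57.6% of the other T cells. At least 1 gene of the regulatory list (Foxp3, Ikzf2 and Il2ra) was found in 84.0%, against 30% of the others, with Il2ra, a chain of the interleukin-2 receptor, in 48.0% (27.8-68.7) against 6.26%. Gata3, the Th2 factor that regulatory cells of tissues also use, was in 52.0% (31.3-72.2) against 17.2%, and Il1rl1, the interleukin-33 receptor, in 24.0% (9.36-45.1) against 3.57%. Single shares of Foxp3, Ikzf2, Il4, Il5 and Il13 are not given here, so these values do not name a T-cell type. The early genes Nr4a1 (80.0 against 23.5%), Nfkbia (96.0 against 55.1%), Fos (64 against 25.5%) and Tnfaip3 (72.0 against 34.4%) followed, while the cytotoxic granule gene Nkg7 was in 12% against 50.3%. The macrophage list (8 genes) and the neutrophil list (5 genes) were at 0 in all 25 cells, which had a median of 2784 UMIs against 2299. These lists were rare in every class of the aged meninges, in 0.956 to 2.53% and 0 to 0.137% of cells. A value of 0 in 25 cells therefore says little, and the source of the Cxcl2 RNA was not tested.

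Ccl5 was spread over most cells in the aged CD8 classes and concentrated elsewhere. If the UMIs of a gene fell on cells in proportion to depth, a known number of cells would have at least 1, and the observed over expected number is near 1 for most genes: its median over the genes with at least 20 UMIs was 0.981 to 0.991. Ccl5 was at 0.929 and 0.932 in CD8 T cells of the aged meninges and choroid plexus, and at 0.319 and 0.485 in the young ones. In the CD8 classes of the 4 libraries Xcl1 stood at 0.436 to 0.771 and Ccl4 at 0.290 to 0.635, so that in the young meninges Ccl4 (0.290) was near Ccl5 and Xcl1 (0.510) above it. In the CD4 and neither classes Ccl5 was at 0.155 to 0.479, below Xcl1 of the same class wherever both had at least 20 UMIs. The measure depends on level, because the expected number nears all cells for a gene with many UMIs. A lower value of Ccl5 thus does not mean fewer cells. In CD4 T cells of the aged choroid plexus, Ccl5 (0.321) was in 30.7% of cells and Xcl1 (0.708) in 14.0%. Ccl1 in young meninges CD4 T cells had 0.00991, the lowest of 4986 genes, followed by Ccl3 at 0.0228 and Ccl4 at 0.0270, so the lowest 3 of that class were all chemokine genes led by the same cell. Ccl1 was also the lowest of 4788 genes in aged meninges CD8 T cells, at 0.0471.

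The top 5% of cells tell the same in other units. Cells were ranked anew for each gene, so the top cells may differ between genes. In aged meninges CD8 T cells, the top 15 of each gene held 17.7% of Ccl5, 69.6% of Xcl1, 81.2% of Ccl4 and 83.1% of Ccl3 UMIs. In aged choroid plexus CD8 T cells, the top 24 of each gene held 21.3% of Ccl5, 31.7% of Xcl1 and 71.9% of Ccl4 UMIs. Only 15 CD8 T cells there had Ccl3, so its top 24 necessarily held all of it. The fewest CD8 T cells that held 50% of Ccl5 were 12, 11, 61 and 88 in the 4 libraries, and for Ccl4 they were 3, 4, 2 and 2.

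**Figure D4:**
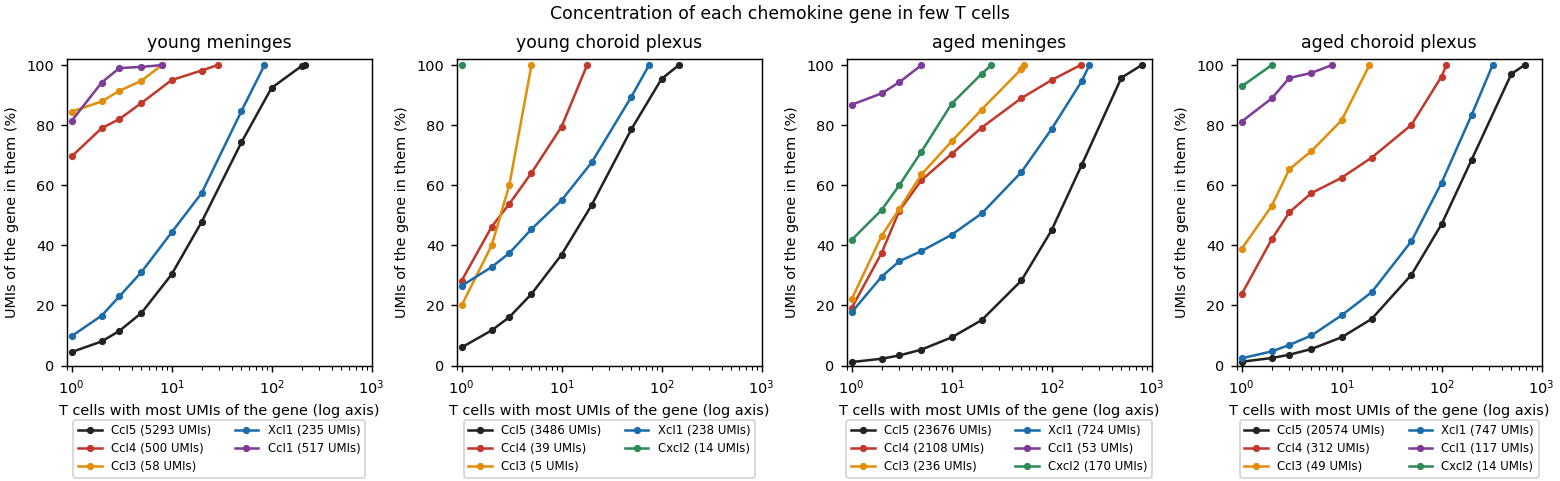
Cumulative share (%) of each gene's UMIs over T cells ordered from most to fewest UMIs (log axis), 1 panel per library. In the aged meninges the top cell of each gene held 41.8% of Cxcl2 and 86.8% of Ccl1, while 119 cells held 50% of Ccl5.

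Only 25 of 4117 T cells (0.607%) had at least 20 UMIs of Ccl4, Ccl3, Xcl1, Ccl1 or Cxcl2, a limit set after the cells were seen. Of the UMIs of all 4 libraries, they held 95.1% for Ccl1, 73.2% for Ccl4, 71.8% for Ccl3, 36.4% for Cxcl2 and 21.4% for Xcl1. For Ccl5 the share was 2.21%. The limit was not applied to Ccl5, so the selection itself favours high shares of the other genes and a low share of Ccl5. These shares therefore do not set Ccl5 apart. The median Ccl5-positive CD8 T cell had 36 Ccl5 UMIs in the aged meninges and 26 in the aged choroid plexus, above 20. The young meninges held 3 of the 25 cells, the young choroid plexus 1, the aged meninges 18 and the aged choroid plexus 3. This is 0.298, 0.162, 1.29 and 0.275% of their T cells. By class, 6 were CD4, 8 CD8, 10 neither and 1 both, and in several cells the class rests on 1 UMI. Ccl4 led in 17 of them, Ccl1 in 4, Xcl1 in 2, Ccl3 in 1 and Cxcl2 in 1.

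These cells differed in what they made. A CD4 T cell of the young meninges with 10388 UMIs had 421 of Ccl1, 348 of Ccl4, 49 of Ccl3 and 23 of Xcl1 together with 23 of Csf2, 14 of Tnf, 9 of Lta and 8 of Ifng, all cytokines of activated T cells, and 0 of Ccl5. A CD8 T cell of the aged meninges had 402 Ccl4 UMIs, and the 6 chemokine genes made up 21.9% of its 2373 UMIs. A neither T cell of the aged meninges had 389 of Ccl4, 50 of Ccl3 and 9 of Ifng. By contrast, another CD4 T cell of the young meninges had 25 of Ccl1 with 12 of the Th2 cytokine Il13 and 0 of Ccl3, Ccl4, Ccl5 and Xcl1, and a CD4 T cell of the aged meninges had 71 of Cxcl2 with 10 of Nr4a1 and 11 of Nfkbia and 0 of the other 5 chemokines.

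Across the 25 cells, Nfkbia was present in 17, Nfkbid in 15, Ifng in 12, Tnf and Nr4a1 in 11 each, Gzmk in 10 and Egr2 in 9. Shares over all T cells were not set beside these counts, so they do not set the 25 cells apart. Nfkbia was common in other T cells too, as the Cxcl2 comparison above shows. Lyz2 and C1qa (macrophage list), S100a8 (neutrophil), Cd79a (B cell) and Trdc (gamma-delta) were at 0 in all 25. Cd79a was rare in any case, in 0.0917 to 0.485% of the T cells of a library. Other genes of these lists were not counted here, and filters on wider marker lists, given below, removed some of the 25 cells. The depth of the 25 cells ran from 1507 to 10388 UMIs with a median of 3459. Their doublet scores ran from percentile 2.17 to 95 of their library with a median of 35.9. Where a T-cell receptor beta variable gene was found, no single one led in all cells, but some repeated within a library. Trbv19 led in both CD4 cells of the young meninges with Ccl1, where it led in 9.04% of T cells. In the aged meninges Trbv16 and Trbv3 led in 3 cells each, against 6.55 and 9.99% of T cells. Trbv31 and Trbv19 led there in 2 cells each, against 4.42 and 8.27%.

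**Figure D5:**
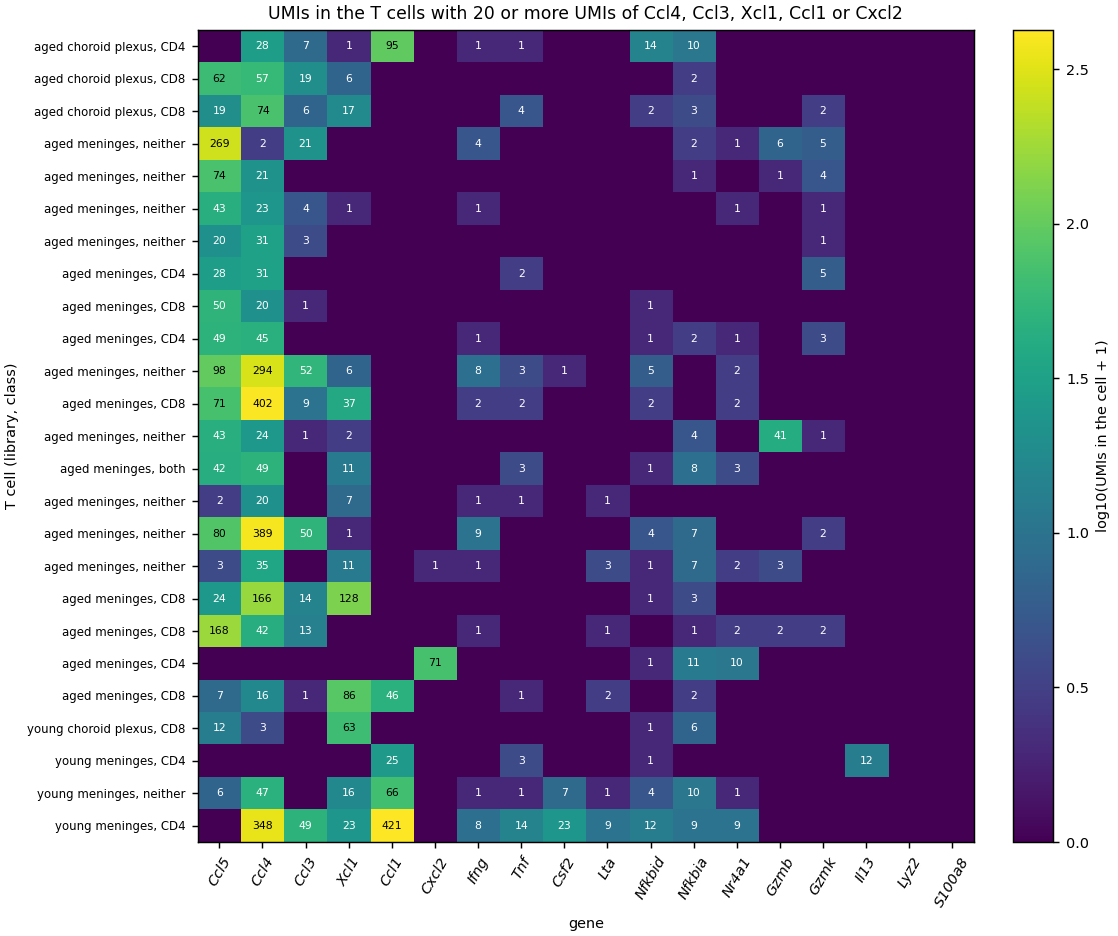
UMIs (number in each field, colour log10 of UMIs plus 1) of the 6 chemokine genes and 12 others in the 25 T cells with at least 20 UMIs of Ccl4, Ccl3, Xcl1, Ccl1 or Cxcl2, 1 row per cell. Ccl4 is present in 23 of the cells and Ccl5 in 21, while Lyz2 and S100a8 are empty throughout.

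The 6 genes were found together to unequal degrees, given as a description, since positive cells were often deeper than the others of their library. In the aged meninges 96.4% (92.7-98.5) of Ccl4-positive T cells had Ccl5, against 50.7% of the others, at median depths of 2646 and 2254 UMIs, and in the aged choroid plexus 98.2% (93.7-99.8) against 57.9%, at 2841 and 2839 UMIs. Xcl1-positive cells had Ccl5 in 76.5, 90.7, 95 and 92.6% of cases in the 4 libraries, against 16.5, 14.9, 49.2 and 49.2% of the others. Their median depths were 3663, 4242, 2826 and 3228 UMIs, against 3174, 2928, 2178 and 2630. Ccl3 was the closest companion of Ccl4: 73.6% (59.7-84.7) of the Ccl3-positive cells of the aged meninges had Ccl4, against 11.6% of the others, and 47.4% (24.4-71.1) against 9.61% in the aged choroid plexus. Of the Ccl1-positive cells, 37.5, 40 and 37.5% had Ccl5 in the 3 libraries with Ccl1, from 5 to 8 cells each.

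With all classes pooled, cytotoxic genes were more frequent in Ccl4-positive cells and genes of the resident list in Xcl1-positive cells. The part of the CD8 class in this was not tested. In the aged meninges Gzmk, a granzyme of memory CD8 T cells, was in 69.2% (62.2-75.6) of Ccl4-positive and 22.3% of other T cells, Prf1 (perforin) in 21.0% (15.5-27.4) and 4.49%, and Gzmb in 17.4% (12.4-23.5) and 3.65%. Ifng was in 22.6% (16.9-29.1) and 12.7%, and Nr4a2 in 30.3% (23.9-37.2) and 11.0%. Xcl1-positive cells of the aged meninges had Cxcr6, a receptor of tissue-resident T cells, in 60.3% (53.7-66.5) against 30.9%. The resident list (3 genes) was found in 78.4% (73.5-82.8) of Xcl1-positive and 41.3% of other T cells in the aged choroid plexus. The Th2 and regulatory lists went the other way, the regulatory one with 15.9% of Ccl4-positive and 33.4% of other T cells of the aged meninges.

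Genes whose pattern was most like each chemokine were ranked by Pearson's r of log2 CPM over the 12 sums (4 libraries by 3 classes) and 7649 genes, and by the ratio of shares in positive and other cells at equal depth. For Ccl5 the nearest were Eomes (r = 0.98), Gpr160 (0.97), Nkg7 (0.97), Ifitm10 (0.96) and Psme1 (0.95). For Ccl4 and Ccl3 each was the nearest of the other (0.93), over sums that few shared cells set in part. In CD4 T cells of the young meninges, 1 cell held 348 of 363 Ccl4 and all 49 Ccl3 UMIs. In neither T cells of the aged meninges, 2 cells had 294 and 389 of 956 Ccl4 UMIs. The same cells had 52 and 50 of 152 Ccl3 UMIs. Xcl1 was nearest to Ncald (0.94), Crim1 (0.91) and Chsy1 (0.91), and the nearest genes of Ccl1 (Snx11, 0.87) and Cxcl2 (Sft2d1, 0.87) rest on sums that few cells set. In single cells, Xcl1, Cd8a and Nkg7 came first for Ccl5, Ccl3 and Gzmb for Ccl4, and Fgl2, Ctla2a and Cxcr6 for Xcl1.

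Markers of other lymphocytes moved with age in CD8 T cells, and their part in the results was not tested. At least 1 of the gamma-delta list genes was found in 6.23, 8.48, 34.9 and 48.2% of CD8 T cells in the 4 libraries, at 44.7, 54.6, 288 and 439 summed CPM, with 1 to 2 of its 6 genes at 0, and the natural killer list in 17.5, 20, 43.1 and 39.7%, at 83.8, 89.4, 240 and 187 CPM. Both lists hold genes that alpha-beta CD8 T cells can also transcribe (Tcrg-C4, Trgv2, Klrk1 and Eomes). Without all cells with such a marker, Ccl5 in CD8 T cells differed by log2 2.84 and 1.75, and Ccl4 by log2 6.07 in the meninges (471 against 9 UMIs) and 0.04 in the choroid plexus (21 against 18 UMIs). Leaving these cells out thus ended the Ccl4 call of the choroid plexus and kept the other 3.

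Myeloid markers were scarce. The macrophage list (8 genes) was found in 0 to 3.11% of the cells of any class, at 0 to 32.2 CPM apart from the CD4 class of the aged choroid plexus, where 2 cells brought it to 199 CPM, and Adgre1 was at 0 in all 12 class sums. Erythroid genes were in 18.5, 23.5 and 16.8% of CD4, CD8 and neither T cells of the aged meninges and in 0 to 7.84% of those of the other libraries. The B cell list was found in 51.4, 44.8, 14.6 and 18% of CD8 T cells of the 4 libraries, mostly through Ighm (44.7, 41.8, 13.9 and 16.3%), while Cd79a was at 0 in these CD8 classes. Leaving out every cell with a macrophage, neutrophil, B cell or platelet gene gave log2 1.62 and 1.03 for Ccl5 and 3.22 and 1.02 for Ccl4 in CD8 T cells, meninges first.

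CD8 T cells were set against CD4 T cells within each library. In the young meninges 1 of 6 genes (Ccl5) was higher in CD8 T cells, against 1.05% of all genes, and 3 of 6 (Ccl4, Ccl3 and Ccl1) were lower, against 1.75%, Ccl4 and Ccl3 through the single CD4 cell described above and Ccl1 through that cell and a second. In the young choroid plexus 2 of 6 (Ccl5 and Xcl1) were higher, against 2.11% of all genes. CD8 T cells of the aged meninges had 5 of 6 higher, against 1.08%, and 1 of 6 (Cxcl2) lower, against 3.42%. Those of the aged choroid plexus had 3 of 6 (Ccl5, Ccl4 and Xcl1) higher, against 1.32%, and 1 of 6 (Ccl1) lower, against 1.99%. The calls of Ccl1 in both aged tissues came from 1 cell each.

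The tissues were set against each other within each age. Young CD4 T cells had 3 of 6 genes (Ccl4, Ccl3 and Ccl1) lower in the choroid plexus than in the meninges, against 2.83% of all genes, and young neither T cells 2 of 6 (Ccl4 and Ccl1), against 1.68%, all through 1 or 2 cells of the meninges. Young CD8 T cells had 1 of 6 (Xcl1) higher in the choroid plexus, against 0.932%, at a ratio of 4.40 (3.28-5.96). Aged CD8 T cells had 3 of 6 (Ccl4, Ccl3 and Ccl1) lower in the choroid plexus, against 0.939%, with Ccl4 at a ratio of 0.139 (0.121-0.160). Aged neither T cells had 2 of 6 (Ccl4 and Ccl3) lower, against 1.28%. Aged CD4 T cells had 3 of 6 (Ccl5, Ccl4 and Cxcl2) lower, against 2.05%, and 1 of 6 (Ccl1) higher, against 0.283%, the latter from 1 cell. Ccl5 in CD8 T cells of the choroid plexus stood to that of the meninges at a ratio of 1.18 (1.12-1.24) when young and 0.685 (0.669-0.701) when aged, both under the rule of size.

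Ccr8, the Ccl1 receptor, was in 3.08, 0.808, 5.58 and 5.68% of T cells of the 4 libraries. In CD4 T cells it was at 18.1 CPM in the young and 50.4 CPM in the aged meninges, log2 1.10, and at 3.79 and 30.6 CPM in the choroid plexus, log2 1.56. It was also higher with age in CD8 T cells of the meninges, log2 1.47, and in neither T cells of the choroid plexus, log2 1.96, and not past the rule in neither T cells of the meninges, log2 0.65. Xcr1, the Xcl1 receptor, had at most 3 UMIs in any library.

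Of 30 further chemokine ligand genes listed, 29 were in the matrices, and 1 had enough UMIs to be counted in CD4, CD8 and neither T cells of the meninges: Cxcl10, an interferon-induced ligand of Cxcr3. It was higher in the aged than in the young meninges in all 3 classes, at 83.6 against 10.2 CPM in CD4, 55.2 against 0 in CD8 and 43.5 against 2.67 in neither T cells, log2 2.21, 2.71 and 2.08. In contrast to Ccl1 it was spread over cells, 61 of the 1399 T cells of the aged meninges with at most 21 UMIs each. In the choroid plexus it was countable only in neither T cells, where 35 of 36 young UMIs lay in 1 cell and the aged sum was 24.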

How the data were processed

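Per the labels and the file headers, the authors aligned 10x Genomics 5′ libraries to mouse build mm10 with Cell Ranger and deposited, for each library, UMI counts per gene and cell barcode (unit: count, not normalized); the labels name version 5.1.0 and the file headers 3.1.0. Cells with 200 to 7000 genes and at most 5% mitochondrial UMIs were kept, as in the study's methods. Doublets were marked per library by a Scrublet-type score against simulated doublets (15, 8, 9 and 8 cells removed, 0.627 to 1.45%), computed here in place of the study's caller, so doublets can remain. UMIs were summed per class and library and scaled to CPM. Shares used 1000 UMIs drawn per cell, which left out shallower cells. Cells are not replicates, so no p-value was computed. Counting steps were checked on simulated data. The 6 genes, gene lists and gates were chosen with earlier results of these data known. Genes were named from the 6, the lists and the nearest 5 by pattern. Coordinates follow GENCODE vM21. Python 3.11.15, numpy 2.4.6, scipy 1.17.1 and pandas 2.3.3 were used. Alternatives covered gates, normalization, doublets, filters, pseudocount and left-out cells. In the comparisons of aged with young, the neutrophil, platelet, mast cell and fibroblast marker lists had no gene with enough UMIs, and the choroid plexus epithelium list had 1 (Ttr, lower in aged choroid plexus CD8 T cells). 1 gene of the lists is not reported here.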

Additional observations from a re-analysis of the deposited data

Results flagged for a closer look

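In 5 instances the aged over young log2 ratio pointed one way in the meninges and the other way in the choroid plexus. These were Ccl4 in CD4 T cells (-1.35 and 0.93), Ccl3 in CD4 T cells (-2.03 and 1.08), Ccl1 in CD4 T cells (-5.68 and 3.86), Cxcl2 in CD4 T cells (3.64 and -1.87) and Ccl1 in neither T cells (-2.19 and 1.01), meninges first. With 1 library per condition, the difference between the tissues was not tested. In each instance 1 cell held nearly all UMIs of at least 1 library: 348 of 363 for Ccl4, 49 of 49 for Ccl3, 421 of 446 and 66 of 69 for Ccl1, and 14 of 14 for Cxcl2.

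T cells with UMIs of Cd4 and of Cd8a or Cd8b1 entered no comparison, and Ccl5 was at 2707 CPM (2412-3030) in those of the young choroid plexus (17 cells), 7528 (7085-7992) in the aged meninges (30 cells) and 4078 (3807-4363) in the aged choroid plexus (34 cells), against 446 (297-645) in the young meninges (17 cells). Their median depth was 3379 to 6027 UMIs, above that of all T cells of their library.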

How the results depend on the processing

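Each result was recomputed with other gates, scalings and filters, 1 of them chosen after seeing the data (without the 25 cells with at least 20 UMIs of a gene other than Ccl5). None of the Ccl5 and Ccl4 values of CD8 T cells turned its direction, and 83 of 96 counts, 30 of 60 log2 ratios and 35 of 40 share differences stayed within their counting interval or within 1.5 times. Ccl5 in CD8 T cells (2.19 in the meninges, 1.41 in the choroid plexus) became 2.34 and 1.71 where CD8 needed Cd8b1, 2.08 and 1.30 without receptor, immunoglobulin, mitochondrial and ribosomal genes, 2.13 and 1.29 with median-of-ratios size factors, 2.29 and 1.29 as a mean of per-cell CPM, 1.62 and 1.03 without myeloid, B cell or platelet marker cells, 2.84 and 1.75 without gamma-delta or natural killer marker cells, 1.23 and 0.70 without Ccr7-positive cells, 2.28 and 1.52 without the top cell, and 2.27 and 1.22 from thinned cells.

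Ccl4 in CD8 T cells of the meninges (3.72) became 2.93 without the top 5% of doublet scores, 4.96 with Cd8b1 needed, 3.22 without myeloid, B cell or platelet marker cells, 6.07 without gamma-delta or natural killer marker cells, 2.90 without Ccr7-positive cells, 3.19 without the top cell, 3.18 with a pseudocount of 50 and 2.09 without the 25 cells. In the choroid plexus (1.64) it became 1.02, 0.04 and 1.03 without myeloid (or B cell or platelet), gamma-delta (or natural killer) and Ccr7-positive cells in turn, and 0.79 without the 25 cells. The share gains of Ccl5 (63.6 and 48.2) became 41.1 and 30.5 without Ccr7-positive cells, and those of Ccl4 (16.5 and 3.78) 29.3 and 10.8 without thinning, and 9.14 in the meninges without gamma-delta or natural killer marker cells.

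Of the single-gene ratios behind the counts, Ccl4 in CD4 T cells of the meninges (-1.35) turned to 2.14 without the top cell, 1.71 without the 25 cells, 0.52 as a mean of per-cell CPM and 0.06 from thinned cells. Ccl3 there (-2.03) turned to 0.49 without the top cell and 0.68 without the 25 cells. Ccl1 turned from 2.38 to -0.09 in CD8 T cells of the meninges (Cd8b1 needed, or without the 25 cells) and from -2.19 to 0.22 and 0.04 in neither T cells there (without myeloid, B cell or platelet marker cells, and without the 25 cells). Ccl3 in CD8 T cells of the choroid plexus (1.02) turned to -0.50 without gamma-delta or natural killer marker cells.

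In CD4 T cells of the meninges (2 higher, 3 lower) 3 genes were past the rule as a mean of per-cell CPM and from thinned cells (Ccl5 and Cxcl2 higher, Ccl1 lower), and 3 without the 25 cells (Ccl5, Ccl4 and Cxcl2, all higher). In neither T cells there (5) it was 3 with a pseudocount of 50 (Ccl5, Ccl4 and Ccl3) and 3 without the 25 cells (Ccl5, Ccl4 and Cxcl2). In CD8 T cells of the choroid plexus (3) it was 1, Ccl5, without gamma-delta or natural killer marker cells and without the 25 cells. In neither T cells there (2) it was 1, Ccl5, without myeloid, B cell or platelet marker cells, without the top cell, from thinned cells and with a pseudocount of 50, and 1, Ccl4, without Ccr7-positive cells. With at least 10 UMIs it was 4 (Ccl5, Ccl4, Ccl1 and Cxcl2). The causes were not tested. No paired analysis was possible because the labels give no replicate numbers. With 165 to 473 cells per CD4 or CD8 class, 3 cells would be a share of 1.82 to 0.634%.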

Other observations

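Several cytokine and cytotoxic genes were higher with age in CD8 T cells. Of 13 such genes listed, 5 of 8 countable ones were higher in CD8 T cells of the meninges, against 3.21% of all genes tested. These were Gzmb, Gzmk, Ifng, Nkg7 and Prf1. In CD8 T cells of the choroid plexus, 2 of 9 (Gzmk and Ifng) were higher, against 2.47% of all genes. Gzma, a granzyme, was lower there (173 to 65.1 CPM). Gzmk in CD8 T cells went from 99.6 to 507 CPM in the meninges, log2 2.24, and from 72.7 to 335 CPM in the choroid plexus, log2 2.06. The list medians were 1.36 and 0.39, against 0.03 and 0.13 over all genes.

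Early response genes of T-cell activation (18 listed) were less uniform. Nr4a2, an orphan nuclear receptor induced by T-cell receptor signals, was higher with age in all 3 classes of the meninges, by log2 1.63 in CD4, 1.70 in CD8 and 2.16 in neither T cells. In CD4 T cells of the choroid plexus, 5 of 8 countable genes (Junb, Nfkbia, Nfkbid, Nfkbiz and Tnfaip3) were higher, against 6.90% of all genes. The list median was 1.19 against 0.15 over all genes. In CD8 T cells of the choroid plexus 1 of 7 (Tnfaip3) was higher, against 2.47% of all genes, with a median of 0.10. All cells had passed a warm enzymatic digestion, and its part in these genes was not tested.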
